A study of Arabidopsis thaliana with 8 samples.

Results

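Plates TB50 to TB99 of a tiling array of Arabidopsis thaliana chromosome 4 were examined for histone H3 dimethylated at lysine 4 (H3K4me2). Its tiles were taken by their names alone, although the plates were chosen with earlier results of these data known. A tile is named by its series, plate and well (TB50A01 is plate TB50, row A, column 1). The stretch included all tiles of series TB with a plate number of 50 to 99 and a value on every array. It held 4725 measured tiles of 4800 listed, which is 22.2% of the 21296 measured tiles of the array. The material was 10-day-old seedlings of the accession C24, untreated and grown in liquid culture. DNA from an H3K4me2 chromatin immunoprecipitation (IP, with 50 µg of chromatin) and its input DNA were hybridised together in 4 replicates, I to IV, each on 2 arrays with the dyes exchanged. The 2 arrays of each dye swap held identical values, so n was 4. Whether I to IV were separate cultures is not stated in the labels, and all p-values therefore reflect the spread between these 4 samples, which may be technical. The study as titled dealt with hybrids of several accessions, of which C24 alone was measured here.

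H3K4me2 is placed by methyltransferases that add methyl groups to the tail of histone H3, and in Arabidopsis it is found mainly over genes in euchromatin, where it covers expressed and many silent genes alike. Transposon-rich heterochromatin near the centromeres and in the knob of the short arm of chromosome 4 is known to carry little of it. Immunoprecipitation against input measures where along the DNA the modified nucleosomes lie, as an average over all cells of the seedling.

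The values are deposited log ratios of IP and input, minus the median over all measured tiles of the array. Neither the base of the logarithm nor the direction of the ratio (IP over input, or input over IP) is given in the sources used here, and a tile is for that reason called above or below the array median, with nothing said of enrichment. The tiles could not be tied to positions, genes or sequences with the tables at hand. The order of the tiles is that of their names, by plate, row and column.

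The tiles of TB50 to TB99 lay mostly above the array median. The median over the stretch was 0.54 (replicate I), 0.61 (II), 0.54 (III) and 0.56 (IV), which is 0.56 ± 0.03 (SD, n = 4). All 4 values are above 0, the median of the whole array. By limma's moderated test of each tile over the 4 replicates, fitted and Benjamini-Hochberg adjusted over the whole array at 0.05, 2818 tiles (59.6%) were above the array median and 1071 (22.7%) below it, while 836 (17.7%) passed on neither side. Over all 21296 tiles the test called 42.2% above and 42.3% below. With a difference of more than 0.58 required as well, 2344 tiles (49.6%) were above and 743 (15.7%) below, against 34.4% and 35.2% of all tiles.

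The zero of this scale is a choice, and the counts move with it. Of the called tiles of the stretch 72.5% were above, but with the values as deposited 45.1% were, and with arrays centred on the mode of their own values 45.8%. These settings gave 1421 tiles above with 1731 below, and 1563 above with 1852 below. Both also change the offsets between replicates, and so the spread at a tile, which the counts do not separate from the zero. Under these settings the median of the stretch was -0.06 and -0.07, while the median of all tile means moved to -0.61 and -0.62. The difference between the stretch and all other tiles, given next, cannot change under either, since they shift each array by a constant.

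Compared with the other tiles, TB50 to TB99 was higher and narrower in its values. Its median of 0.56 ± 0.03 stood against -0.21 ± 0.02 over the 16571 other tiles (SD, n = 4 each), a difference of 0.78 ± 0.05. The difference was 0.74 (I), 0.84 (II), 0.75 (III) and 0.77 (IV), positive in 4 of 4 replicates. An exact permutation test that flips the signs of the replicate differences gave a two-sided p = 0.13, the smallest value that 4 replicates allow, so no difference of this kind could pass 0.05. In all, 12 such differences of level, spread and tails were computed, and 11 of them had this p (0.14 after Benjamini-Hochberg adjustment).

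Plates TB00 to TB49 belong to the same tile series. Their 4737 tiles had a median of 0.39 ± 0.02, so that TB50 to TB99 was higher by 0.18 ± 0.03, in 4 of 4 replicates. The difference there was 0.16 (I), 0.22 (II), 0.18 (III) and 0.14 (IV). The share of tiles called above was 59.6% in TB50 to TB99 and 53.4% in TB00 to TB49, and the share called below 22.7% and 29.1%. TA64 to TA99, the last plates of series TA, was compared as the other long stretch with no long block of low tiles, a choice that used the values. Its 3330 tiles had a median of -0.01 ± 0.02. TB50 to TB99 exceeded it by 0.57 ± 0.02, again in 4 of 4 replicates.

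The stretches differed more in the low tail than in the high one (the plot of tile means by stretch). The 5th percentile was -1.24 ± 0.07 in TB50 to TB99, against -1.54 ± 0.09 in TB00 to TB49, -2.10 ± 0.01 in TA64 to TA99 and -3.03 ± 0.10 over all other tiles. The 95th percentile was 1.92 ± 0.08, against 1.94 ± 0.10 in TB00 to TB49, a difference of -0.02 ± 0.03 that was within the spread between replicates. Only 43 tiles of TB50 to TB99 (0.910%) had a mean under -2, compared with 134 (2.83%) in TB00 to TB49 and 2809 (17.0%) over all other tiles. A mean over 2 was reached by 153 tiles (3.24%), compared with 171 (3.61%) in TB00 to TB49. The SD over tiles was 0.999 ± 0.04 in TB50 to TB99 and 1.11 ± 0.04 in TB00 to TB49, lower in 4 of 4 replicates.

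**Figure D1:**
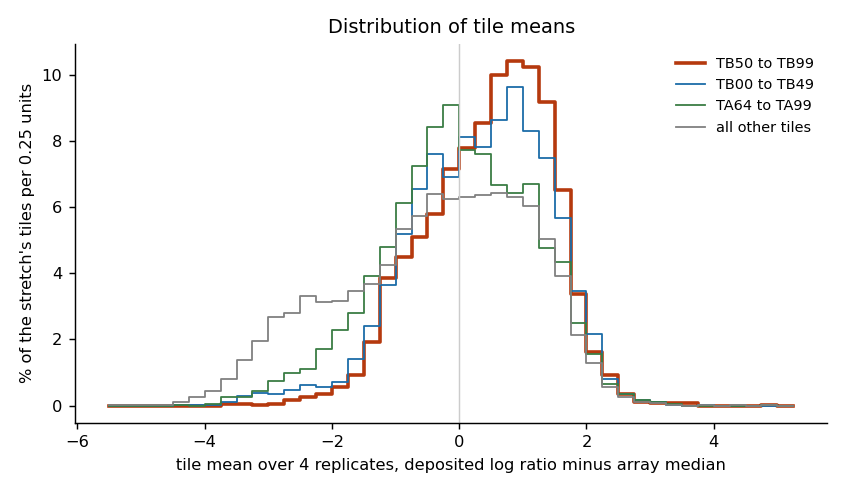
Share of tiles (percent per 0.25 units) by tile mean over 4 replicates, in deposited log ratio minus the array median, for TB50 to TB99, TB00 to TB49, TA64 to TA99 and all other tiles. TB50 to TB99 holds 0.910% of its tiles under -2, against 17.0% of all other tiles, while the 95th percentiles lie between 1.76 (all other tiles) and 1.94 (TB00 to TB49).

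Taken in blocks of 10 plates, the level along the stretch had a trough, a plateau and a fall (the plot of tiles in order). The median was 0.60 ± 0.06 over TB50 to TB59, 0.33 ± 0.05 over TB60 to TB69, 0.74 ± 0.09 over TB70 to TB79, 0.73 ± 0.03 over TB80 to TB89 and 0.38 ± 0.06 over TB90 to TB99 (SD, n = 4 each). TB80 to TB89 was higher than TB60 to TB69 by 0.40 ± 0.04 and higher than TB90 to TB99 by 0.35 ± 0.07, each in 4 of 4 replicates. TB70 to TB79 and TB80 to TB89 differed by less than the spread between replicates. Tiles called above made up 67.5% of TB80 to TB89, with 16.1% below, compared with 50.3% above and 32.3% below in TB60 to TB69. TB80 to TB89, with 951 of the 4725 tiles, also held 49 of the 153 tiles over 2 and 2 of the 43 under -2.

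**Figure D2:**
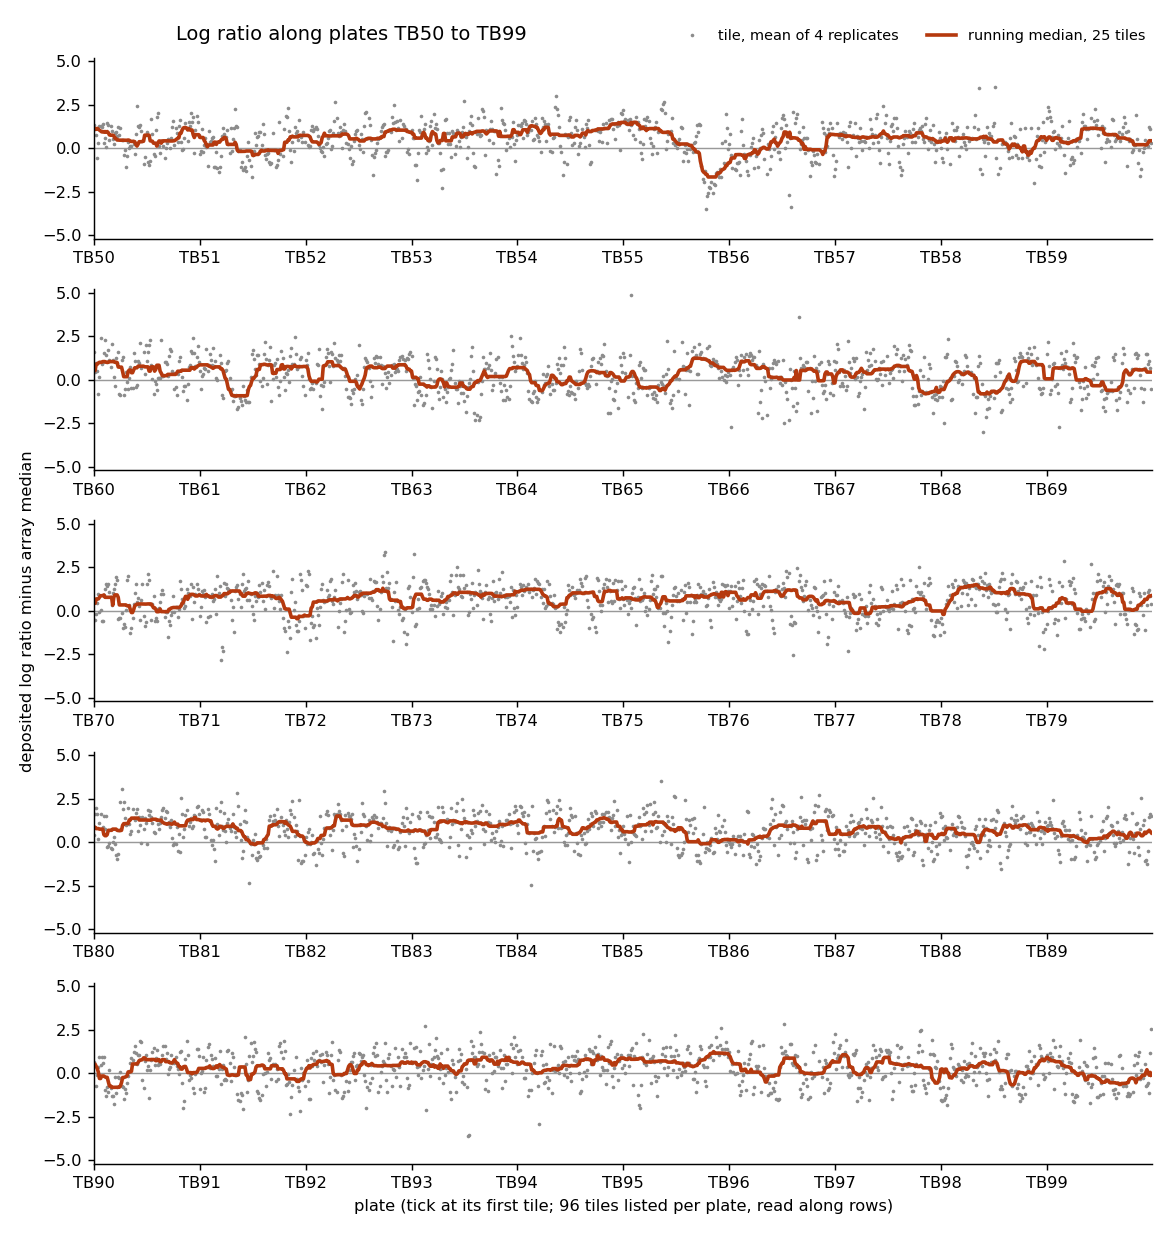
Tile means over 4 replicates (grey points) and their running median over 25 tiles (line), in deposited log ratio minus the array median, for the 4800 listed tiles of TB50 to TB99 in the order of their names, 10 plates to a panel. The line falls deepest at the end of TB55, where the run TB55F12 to TB55H06 has a median of -1.86, and stays above 0 over most of TB70 to TB89.

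Single plates differed more than these blocks, and some went against their block. TB77 in the plateau was at 0.25 ± 0.03, and TB60 in the trough at 0.74 ± 0.12. The plate medians ran from -0.24 to 1.10, with an SD of 0.32 over the 50 plates and a median SD between replicates of 0.06. The 5 highest plates were TB80 at 1.10 ± 0.01, TB54 at 1.07 ± 0.08, TB78 at 1.03 ± 0.07, TB74 at 1.02 ± 0.19 and TB83 at 1.02 ± 0.06 (SD, n = 4 each). Each differed from the next in this order by less than the larger SD of the 2 plates. On TB54, 76 of 94 tiles were above the array median and 5 below it. TB80 had 75 of 96 above and 8 below, and its lowest tile was at -0.96.

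The 5 lowest plates were TB63, TB99, TB64, TB56 and TB69. The median of TB63 was -0.25 (I), -0.29 (II), -0.17 (III) and -0.23 (IV), and it was the only plate below 0 in every replicate. TB99, the last plate, was at 0.04 (I), -0.37 (II), 0.09 (III) and -0.28 (IV), on both sides of 0 with a mean of -0.13 ± 0.23. TB64 was at 0.05 ± 0.08, TB56 at 0.07 ± 0.11 and TB69 at 0.08 ± 0.13, each with an SD larger than its mean. On 48 of the 50 plates more tiles were above than below, and TB63 (29 above and 45 below) and TB99 (37 and 42) were the exceptions. In the order of the 50 medians, 48 of the 49 steps between neighbours were smaller than the larger SD of the 2 plates, so the ranks of most plates are not resolved.

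**Figure D3:**
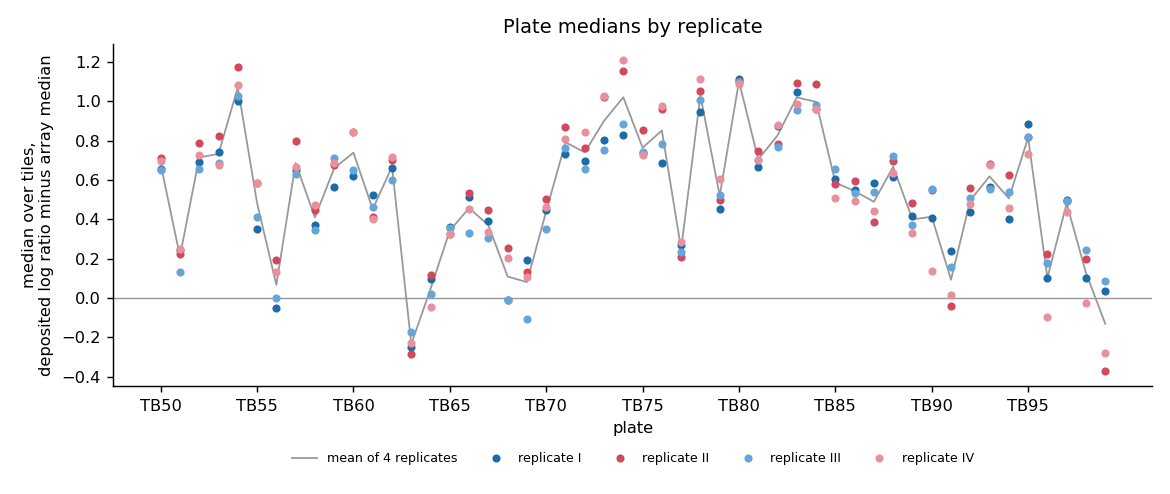
Median over the tiles of each plate, in deposited log ratio minus the array median, for plates TB50 to TB99, with 1 point per replicate (I to IV) and a line through their mean. TB80 and TB54 lie at 1.10 and 1.07, TB63 lies below 0 in all 4 replicates, and the replicates of TB99 fall on both sides of 0.

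Plates also differed in how far their tiles were spread. The SD over tile means was 1.36 on TB55, 1.11 on TB66 and 1.10 on TB68, the 3 widest plates. It was 0.754 on TB88, 0.755 on TB50 and 0.758 on TB75, the 3 narrowest. TB55 held 8 of the 43 tiles under -2, all of them within a single run.

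With arrays centred on their median, runs of tiles above it were longer than runs below it, an order that turned round with centring on the mode. Tiles called above stood in 663 runs of consecutive tiles, on average 4.25 long, and 1812 of the 2818 tiles (64.3%) were in runs of 5 or more. Those called below stood in 490 runs, on average 2.19 long, and 309 of 1071 (28.9%) were in runs of 5 or more. Single tiles made up 24.7% of the runs above and 51.4% of the runs below. In TB00 to TB49 the runs below had a mean length of 2.63, with 41.3% of the tiles in runs of 5 or more, and the runs above one of 4.05, with 63.9%. The share of tiles called differs between the sides and the stretches too (59.6% above and 22.7% below in TB50 to TB99), and the run lengths were not tested. With the arrays centred on their mode the mean length was 2.13 for the runs above and 2.83 for the runs below.

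The longest run above covered 34 tiles, TB78B05 to TB78E02, between 0.18 in the tile before it and -0.05 in the tile after it. Its median was 1.17 (I), 1.52 (II), 1.16 (III) and 1.44 (IV), and its highest tile was TB78D05 at 2.17. The next was TB84F04 to TB84H09 with 30 tiles, a median of 1.29 ± 0.11 and TB84H05 at 2.36. Runs of 24 tiles were TB74A02 to TB74C01, with a median of 1.26 ± 0.24, and TB80G11 to TB81A10, which crossed from a plate to the next with a median of 1.45 ± 0.17. Runs of 22 tiles were TB53H12 to TB54B09, at 1.13 ± 0.25, and TB80E02 to TB80F11, at 1.36 ± 0.14. All but the run on TB84 lay wholly or in part on the 5 plates with the highest medians.

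The longest run below covered 19 tiles, TB55F12 to TB55H06, and was also the deepest of the 5 longest. Its median was -1.78 (I), -1.70 (II), -1.81 (III) and -2.14 (IV). Its tiles ranged from -1.002 at TB55F12 to -3.49 at TB55G04, and the tiles on either side of it were at 1.33 and 0.33. It held 8 of the 43 tiles under -2. The run TB61C05 to TB61D10 had 18 tiles and a median of -1.10 ± 0.16, and its lowest tile was TB61C11 at -1.71. The remaining 3 were TB68D03 to TB68E01 (11 tiles, -1.06 ± 0.18), TB69E01 to TB69E10 (10 tiles, -0.75 ± 0.23) and TB97H11 to TB98A08 (10 tiles, -1.27 ± 0.20). Only these 5 runs below reached 10 tiles, compared with 63 runs above.

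The level within a run depended on its length and on the place of a tile in it. Single tiles called above had a median of 0.72 ± 0.04, tiles in runs of 2 to 4 one of 1.03 ± 0.02, and tiles in runs of 5 to 9 one of 1.08 ± 0.05. In runs of 10 or more it was 1.16 ± 0.12, a step smaller than the spread between replicates. In the 125 runs above of 7 tiles or more, the end tiles had a median of 0.998 ± 0.06, the next ones 1.23 ± 0.08 and the third ones 1.18 ± 0.10, and the inner tiles 1.18 ± 0.14. In the 18 runs below of that length the median was -0.73 ± 0.08 at the ends, -0.86 ± 0.06 in the next tiles, -1.07 ± 0.06 in the third ones and -1.21 ± 0.06 in the inner tiles, lower at each place inwards. The threshold chose these tiles, and an end tile borders a tile that did not pass, so the profiles are given as a description.

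The replicates diverged in runs of 7 or more, on both sides, in the inner tiles and at the ends. End tiles of the runs above had medians of 0.96 (I), 1.08 (II), 0.94 (III) and 1.02 (IV). Those of the runs below had -0.70 (I), -0.78 (II), -0.64 (III) and -0.81 (IV). Over all tiles of the stretch the SD over tiles was also larger in II (1.05) and IV (1.02) than in I and III (0.96 each). Inner tiles of the runs above had a median of 1.04 in I and 1.08 in III, but 1.33 in II and 1.26 in IV. Single tiles called above had medians of 0.74 (I), 0.73 (II), 0.76 (III) and 0.67 (IV). II and IV were above I and III in the inner tiles of long runs above, but not in single tiles. Inner tiles of the runs below had medians of -1.16 (I), -1.26 (II), -1.15 (III) and -1.26 (IV), and tiles in runs below of 2 to 4 had -0.80 (I), -0.95 (II), -0.75 (III) and -0.89 (IV). In both of these sets of tiles below, II and IV were the lower ones. Runs below of 10 or more showed no such split, at -1.25 (I), -1.25 (II), -1.19 (III) and -1.26 (IV). In the run TB68D03 to TB68E01 II and IV were the higher ones, at -0.97 and -0.86 against -1.26 (I) and -1.14 (III).

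Adjacent tiles were alike, but less so than in TB00 to TB49 or TA64 to TA99 (the plot of likeness by distance). Pearson's r between adjacent tiles of TB50 to TB99 ran from 0.49 to 0.55 in the 4 replicates, over 4653 pairs of tiles that share arrays and are not independent. Its mean of 0.52 ± 0.03 was below that of TB00 to TB49 (0.63 ± 0.02) by 0.11 ± 0.01 and below that of TA64 to TA99 (0.59 ± 0.02) by 0.07 ± 0.02, in 4 of 4 replicates each. Tiles 2 apart had an r of 0.28 ± 0.05, tiles 3 apart 0.15 ± 0.04, tiles 5 apart 0.10 ± 0.01 and tiles 12 apart 0.07 ± 0.01. At 12 tiles TB00 to TB49 still had 0.16 ± 0.01. Of the 4653 adjacent pairs, 46.3% were called above together, 12.5% below together and 10.4% on opposite sides.

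**Figure D4:**
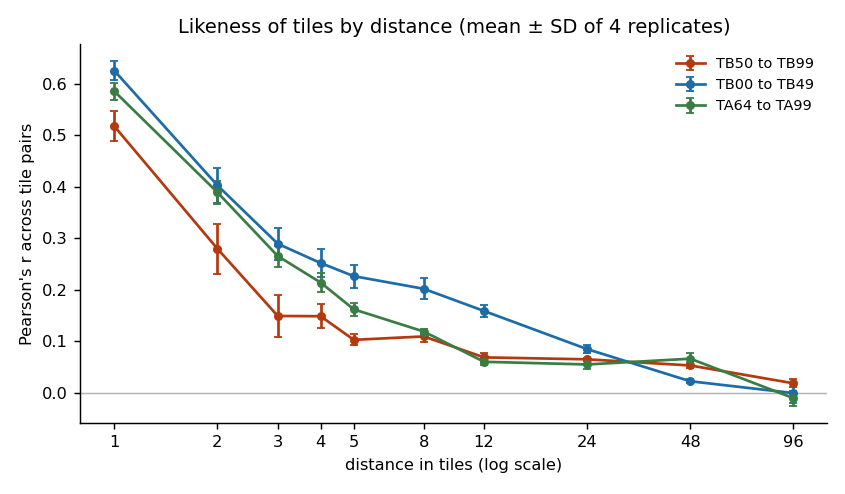
Pearson's r across pairs of tiles (mean ± SD of 4 replicates) by distance in tiles on a log axis, for TB50 to TB99, TB00 to TB49 and TA64 to TA99. The r of TB50 to TB99 is lowest at short distances, 0.52 against 0.63 and 0.59 between adjacent tiles, and its fall levels off from 5 tiles on.

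The highest tile of the stretch was TB65A08, at 4.94 (I), 4.64 (II), 4.75 (III) and 5.07 (IV) (limma adjusted p = 2.4e-07). It stood alone: TB65A07 was at 1.41, TB65A09 at 0.18 and its plate at a median of 0.34. TB66F04 followed at 3.40 (I), 3.90 (II), 3.22 (III) and 3.79 (IV) (limma adjusted p = 3.7e-07), next to TB66F03 at -1.36 and TB66F05 at 1.24. TB58E02 was at 3.92, 3.55, 3.65 and 3.04 in I to IV, between 1.48 and -0.57. All 4 replicates of these tiles were far above both neighbours.

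TB85C11 (3.52 ± 0.09), TB58C12 (3.47 ± 0.28) and TB73A03 (3.29 ± 0.10) also stood high above a neighbour, at 0.01, -1.18 and -0.89. TB72F12 and TB72G01 formed an adjacent high pair, at 3.24 ± 0.27 and 3.39 ± 0.20, between 1.66 and 1.30. TB80C02 (3.07 ± 0.06) and TB54C12 (3.04 ± 0.10) lay among other high tiles, with neighbours at 2.30 and 1.91 and at 2.37 and 2.25. The limma adjusted p of these 10 tiles was at most 5.1e-07. Their median was 3.43, and that of their 20 neighbouring values 1.36, of which 16 were above 0.

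The lowest tiles were an adjacent pair, TB93E04 and TB93E05. TB93E04 was at -3.66 (I), -3.64 (II), -3.50 (III) and -3.51 (IV), and TB93E05 at -3.39, -3.81, -3.32 and -3.72 in the same order (limma adjusted p = 2.4e-07 and 2.6e-07). They lay between -0.81 and 0.77 on a plate with a median of 0.62. TB55G04 (-3.49 ± 0.16) and TB55G05 (-2.72 ± 0.23) were another pair, inside the longest run below. TB56E09 (-3.35 ± 0.15), TB94B09 (-2.93 ± 0.33) and TB66A03 (-2.71 ± 0.18) had a tile above 0 beside them, at 0.58, 1.03 and 0.58. TB68D03 (-3.01 ± 0.19) opened a run of 11 tiles below.

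TB71B08 and TB69A12 were low in every replicate but by different amounts. TB71B08 was at -3.36 in I and -3.40 in III, but at -2.20 in II and -2.25 in IV. TB69A12 went the other way, at -2.07 (I), -3.40 (II), -2.33 (III) and -3.18 (IV) (limma adjusted p = 1.4e-05 for both tiles). Of the 19 measured neighbours of the 10 lowest tiles 12 were below 0, with a median of -0.79.

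Some tiles stood against both neighbours. A tile called below lay between 2 tiles called above in 71 cases, and a tile called above between 2 called below in 21. Tiles called above were also the more common, 2818 against 1071. Among tiles below, the largest gap to the neighbours was at TB84B01, at -2.48 ± 0.06 between 0.52 and 2.05. Among tiles above, it was at TB56E08, at 0.58 ± 0.66 between -2.69 and -3.35, followed by TB84B02, at 2.05 ± 0.40 between -2.48 and -0.50. TB56E08 was near 0 in I and III, and above 1 in II and IV. On TB56, tiles E06 to E09 alternated at 0.39, -2.69, 0.58 and -3.35, and on TB66, tiles C02 to C05 at 0.74, -1.90, 1.62 and -1.29. TB66 supplied 4 of the 10 isolated tiles with the largest gaps, namely TB66A03, TB66C03, TB66C04 and TB66E02, and TB56 and TB84 supplied 2 each.

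On TB66 many of the low tiles followed the wells (the maps of wells). In rows A, C, E and G, the odd-numbered columns had a median of -0.86 ± 0.15 and the even-numbered ones 0.61 ± 0.10 (23 and 24 tiles). The difference was -1.58 (I), -1.76 (II), -1.30 (III) and -1.27 (IV). Across the 100 sets of alternate rows on the 50 plates this difference had a median of 0.14 and a highest value of 0.63, and TB66 was the lowest of all. All 5 tiles of TB66 under -2 were in these wells. Not all tiles of these wells were low, as TB66A05, TB66A07 and TB66G11 were at 0.72, 1.32 and 0.88. Low tiles also lay elsewhere on the plate, such as TB66F02 at -1.79 and TB66F03 at -1.36. TB66 also had the least likeness of adjacent tiles, with an r of 0.13 ± 0.04 against a median of 0.49 over plates, and was the only plate where, on the mean of the replicates, tiles 2 apart were more alike (0.18 ± 0.02) than adjacent ones. This order held in 3 of the 4 replicates on TB66 and in 1 of 4 on TB84. Whether the wells of TB66 hold the tiles their names give was not tested.

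On TB58 the same rows differed in another class of wells. The even-numbered columns of rows A, C, E and G held 18 of the 19 tiles of this plate without a value. The 6 measured tiles of these wells had means from -0.56 to 3.54 with a median of 1.41, against a median of 0.38 and a highest value of 1.49 in the other wells of the plate. TB58E02 and TB58C12, among the 5 highest tiles of the stretch, were 2 of these 6. On TB65 all 6 blank tiles, and on TB56 5 of 6, were in this class of wells, and TB65A08, the highest tile of all, was as well. On the other 47 plates 7 of 44 blank tiles were in this class. The part of the well class in these high values was not tested. Without the plates TB56, TB58, TB65 and TB66, 2636 tiles were above and 962 below, and the median of the stretch was 0.58.

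**Figure D5:**
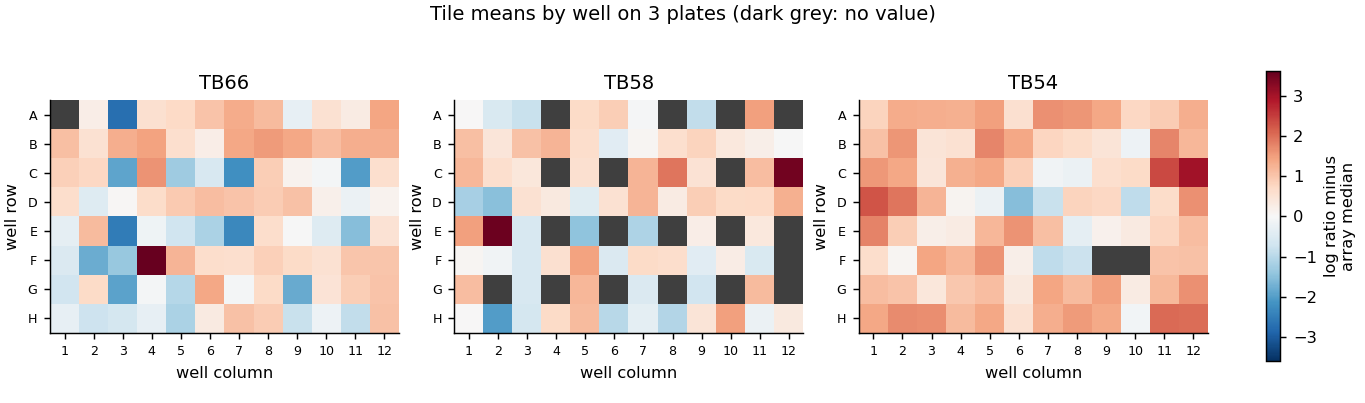
Tile means over 4 replicates by well row and column on TB66, TB58 and TB54, in deposited log ratio minus the array median, with tiles without a value in dark grey. On TB66 all 5 tiles under -2 sit in odd-numbered columns of rows A, C, E and G. Other tiles of these wells are high, such as TB66A07 at 1.32, and low tiles also lie elsewhere, such as TB66F02 at -1.79. On TB58, 18 of 19 blanks and the 2 highest tiles sit in the even-numbered columns of those rows. TB54 shows no such grid.

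A smaller difference between wells ran through the whole stretch. Tiles in odd-numbered columns had a median of 0.63 ± 0.04 and tiles in even-numbered columns 0.51 ± 0.03, and the difference was 0.09 (I), 0.12 (II), 0.13 (III) and 0.15 (IV). It was positive in all 4 replicates and larger than its SD of 0.03. Odd-numbered columns were higher on 39 of the 50 plates. Tiles next to each other in a row alternate between the 2 kinds of column. In TB00 to TB49 the difference was 0.11 ± 0.03, and in TA64 to TA99 0.03 ± 0.01. Setting each tile against its 2 neighbours, which lie in the other kind of column, takes this contrast from both sides and is not a separate effect. The mean odd minus even difference against the neighbours was 0.24 ± 0.06 in TB50 to TB99, compared with 0.26 ± 0.09 in TB00 to TB49 and -0.06 ± 0.03 in TA64 to TA99. It was positive in 4 of 4 replicates in both TB stretches and in none in TA64 to TA99. Without TB56, TB58, TB65 and TB66 the difference of medians in TB50 to TB99 was 0.14 ± 0.02, and the difference against the neighbours 0.29 ± 0.06. The pattern was noticed in these values, and its source was not tested.

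The replicates were alike in pairs. Across the 4725 tiles I with III had a Pearson's r of 0.97 and II with IV one of 0.98, while the other 4 pairs had 0.89 to 0.90. Differences between replicates at a tile had an SD of 0.24 (I with III) and 0.22 (II with IV), compared with 0.45 to 0.48 in the others. Both II and IV were above both I and III in 1706 tiles, and below both in 1672. Tiles on which the replicates fell on both sides of the array median numbered 733 (15.5%), and in 300 of these I and III were on a side and II and IV on the other. The means of the 733 tiles had a median size of 0.14. With I and III averaged to 1 value, and likewise II and IV, limma called 2567 tiles above and 885 below, with limma's prior here so strong that tiles shared 1 spread. Fitted as a random block, these pairs had an estimated correlation of 0.70, so their members were not independent. The p-values over 4 replicates, which treat them as independent, are for that reason too small.

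The replicates disagreed most on 5 tiles, named by their SD over replicates. TB57E12 (SD 1.59) was at -2.13 (I), 1.17 (II), -2.29 (III) and -1.04 (IV), and TB60G08 (SD 1.27) at -1.25, 1.42, 0.51 and 1.49 in the same order. TB98D04 (SD 1.13) was at -0.67 in IV and at 1.41 or more in the others, and passed the test (limma adjusted p = 0.035) although its sign was not the same in all replicates. TB89E06 (SD 1.02) and TB89G06 (SD 1.01) were highest in II, at 1.71 and 3.06. Of these 5, TB57E12, TB60G08, TB89E06 and TB89G06 were in even-numbered columns of rows A, C, E or G. This class makes up 1200 of the 4800 listed wells, and whether it differs in spread between replicates was not tested.

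At the lower border of the stretch the nearest tiles on both sides lay above the array median. They are too few to show whether the level changed there. The last tiles of TB49, just outside, were at 1.31, 2.64 and 0.44, and the first tiles of TB50, just inside, at 1.37, 1.10 and 0.78. The last tiles of TB99 were at -1.12, 1.20 and 2.58.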

How the data were processed

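The deposited value table of 8 two-channel arrays was used, whose values are processed log ratios per the table itself and the labels. Per the labels' protocols, amplified DNA was labelled directly with Cy3 and Cy5. What software, background correction or normalization the authors applied is not given in the sources used here. Scanner intensities were not used here, so signal over background is unknown. The source names were taken for the channel that held the IP, since a sample type tag of input DNA also stands on IP channels. The value shared by the arrays of a dye swap was taken once per replicate, minus its median over the 21296 measured tiles, and the 39 features whose name is not a plate and well had no value. limma 3.58.1 in R 4.3.3 tested each tile's mean against 0 over all tiles. The number of arrays limits the precision, with a median standard error of 0.11 for a tile's mean. The remaining statistics used scipy 1.17.1, pandas 2.3.3 and numpy 2.4.6 under Python 3.11.15.

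The plates and the tests were chosen with earlier results of these data known. Named were the 10 highest and 10 lowest tiles that passed with 1 sign in all replicates, the 5 longest runs on each side (with a tie), the 5 tiles of largest SD over replicates, the isolated tiles with the largest gaps (up to 5 on each side), the 5 highest and 5 lowest plates, the 3 plates of widest and of narrowest spread, and the tiles at the borders. A tile without a value ended a run. Well columns and well classes were examined after the values had been seen. Alternatives were other centrings, scaling, quantile normalization, a minimum change, averaged or blocked replicates, replicates left out, and other reading orders.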

Additional observations from a re-analysis of the deposited data

Results flagged for a closer look

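Among the 66 sets of 4 replicate values examined, 3 had a replicate away from the rest by a gap, as a share of the whole range, above Dixon's critical value, and chance sets apart about 1 in 20. Tile TB98D04 was at -0.67 in IV and at 1.52, 1.78 and 1.41 in I, II and III, with a gap of 0.849 of the range. Plate TB75 had a median of 0.85 in II, against 0.74, 0.74 and 0.73 in I, III and IV, with a gap of 0.888. Tile TB80C02 was at 3.16 in I, against 3.04, 3.04 and 3.05 in II, III and IV, with a gap of 0.850, in a set whose SD of 0.06 was the smallest of the 20 highest and lowest tiles.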

How the results depend on the processing

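Only the settings with another zero moved the counts of tiles by over 1.5 times. They also changed the offsets between replicates. The array medians, left in the uncentred values, ran from -0.89 (III) to -0.35 (IV). The mode lay above the median by 0.57 (I), 0.95 (II), 0.53 (III) and 0.49 (IV). The spread at a tile changed with these offsets, and its part in the counts was not tested. Uncentred, the stretch had 1421 tiles above 0, 1731 below and a median of -0.058. Centred on the mode it had 1563 above, 1852 below, a median of -0.070 and runs of 2.13 tiles above and 2.83 below on average, in place of 4.25 and 2.19, so the order of the run lengths turned round. Leaving out each replicate gave 2737 to 2756 tiles above and 992 to 1035 below. A random block of I with III and II with IV, with an estimated correlation of 0.70, gave 2630 and 912. A random block of I with II and III with IV, with an estimated correlation of -0.77, gave 3081 and 1262. The 3 differences of medians kept their sign under every setting run, though a change of zero alone cannot alter them. The range of plate medians was 1.14 with means over tiles in place of 1.34. The neighbour correlation was 0.081 with wells read down columns and 0.48 with plate medians removed, against 0.52. The 20 highest and lowest tiles kept their sign and their side of the threshold under each of the 11 settings run. They were picked for their extreme values, so this is no independent support. The column and plate alternatives were added after seeing the data.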
